A study of Mus musculus with 8 samples.

Results

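Genes for immune checkpoint ligands, the surface and secreted molecules through which tumor cells inhibit or engage immune cells, were followed in 4T1, a mouse mammary carcinoma line, sorted by the surface antigen SCA1. The 10 members were Cd274, Cd80, Cd276 and Vtcn1 of the B7 family, Pvr and Nectin2 of the nectin family, Raet1e, Cd47, Lgals9 and Nt5e. They were matched by gene symbol to the Ensembl identifiers of a matrix of 16341 genes. Counts were read for 8 of the 10, 6 of these 8 passed the filter on low counts, and Cd80 and Nectin2 were not analysed here. RNA-seq was run on 4 libraries of the positive fraction (4T1-SCA1+) and 4 of the negative fraction (4T1-SCA1-). Cells were stained for SCA1, the product of Ly6a, separated on magnetic columns, and labelled CD45-, that is, without the antigen carried by leukocytes. The source labels name the parental 4T1 line, whereas the protocol speaks of stained 4T1 tumor. Both groups are fractions of this single line, and no genotype, treatment, time point or animal age is given that sets them apart. The labels do not say whether the 4 libraries of a group came from separate sorts, so the p-values measure only the spread between these libraries, which may be technical.

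Checkpoint ligands act on receptors of T cells, natural killer cells and macrophages. PD-L1, the product of Cd274, binds PD-1 and restrains T cells, and its transcription is induced by interferon-γ through JAK kinases and IRF1. PVR (CD155) binds both the inhibitory receptor TIGIT and the activating receptor CD226, CD47 engages SIRPα on macrophages and inhibits phagocytosis, galectin-9 binds TIM-3, RAE-1ε is a ligand of the activating receptor NKG2D, and CD73, encoded by Nt5e, makes extracellular adenosine from AMP.

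The promoters of Cd274 and Lgals9 are shown because these genes had the largest differences, in opposite directions, among the 6 tested members. Both sequences are from the RefSeq promoter table of GRCm38.p6 and run 5′ to 3′ on the strand of the gene, at chr19:29367188-29367487 (plus strand) and chr11:78984875-78985174 (minus strand). Capitals mark matches, on either strand, to an interferon regulatory factor (IRF) element written as GAAANNGAA and to an ETS element written as GGAAGT.
Cd274: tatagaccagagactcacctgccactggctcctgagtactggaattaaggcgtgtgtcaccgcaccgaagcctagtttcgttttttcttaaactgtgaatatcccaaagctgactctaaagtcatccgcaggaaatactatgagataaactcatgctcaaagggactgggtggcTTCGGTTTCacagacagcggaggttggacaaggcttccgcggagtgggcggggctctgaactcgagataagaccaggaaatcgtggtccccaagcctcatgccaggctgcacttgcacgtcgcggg
Lgals9: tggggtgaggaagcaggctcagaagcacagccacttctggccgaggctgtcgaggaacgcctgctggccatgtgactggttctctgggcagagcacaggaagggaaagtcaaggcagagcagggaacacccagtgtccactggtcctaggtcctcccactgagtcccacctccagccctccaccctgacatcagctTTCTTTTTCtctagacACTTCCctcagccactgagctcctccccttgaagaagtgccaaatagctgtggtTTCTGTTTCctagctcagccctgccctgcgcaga
The IRF element was found in 8.56% of 32851 promoters of the same length. Cd274 held it 1 time, as TTCGGTTTC with its first base 76 bases before the RefSeq start, and Lgals9 held it 2 times, as TTCTTTTTC and TTCTGTTTC. The ETS element, found in 23.8% of promoters, occurred in Lgals9 as ACTTCC. Of the 10 members, 9 were in the table, all but Pvr, and the promoters of Cd276, Nt5e, Cd47 and Raet1e held neither of these elements nor the AP-1 element TGANTCA. The AP-1 element was found in 7.81% of promoters and in the Vtcn1 promoter as TGAGTCA. The elements GAAANNGAA and GGAAGT can share bases. A match is a description of the letters and shows neither binding nor its lack.

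Total counts ran from 15041995 to 16968215 in 4T1-SCA1+ libraries and from 13561804 to 16142836 in 4T1-SCA1- libraries. Ly6a itself was read 145 to 196 times per 4T1-SCA1+ library and 0 to 4 times per 4T1-SCA1- library, in the direction of the labels. Of 11 epithelial markers, 10 could be tested and Krt5 had at most 2 counts in any library, and Epcam was at 3128 ± 101 against 3222 ± 35.2 normalized counts (mean ± SD, n = 4). Of the 10, 2 were higher in 4T1-SCA1+ cells, Krt18 (log2 fold change 0.38 ± 0.04, edgeR adjusted p = 8.61e-07) and Krt8 (0.31 ± 0.04, adjusted p = 6.4e-06, but 0.05 and 0.203 with GC correction). The 5 that were lower were led by Cdh1, E-cadherin (-0.69 ± 0.05, adjusted p = 6.19e-10), and Esrp1, an epithelial splicing regulator (-0.56 ± 0.05, adjusted p = 2.78e-08). Of 22 leukocyte markers, 17 had at most 10 counts in every library or were not analysed here, Ptprc, which encodes CD45, had at most 4 counts in any library, and Lyz2 was at 0 in all 4T1-SCA1+ libraries. The 4 leukocyte markers that could be tested were all higher in 4T1-SCA1+ cells, Cd74 by 0.94 ± 0.13, Cd68 by 0.65 ± 0.09, Csf1r by 1.18 ± 0.20 and S100a8 by 2.38 ± 0.27 on the log2 scale, and the summed list ran from 416.9 to 479.8 against 236.8 to 277.4 normalized counts. Most of that sum came from Cd68 and Cd74. Of 3 tested fibroblast markers, 2 were higher, Pdgfra at 0.63 ± 0.07 (edgeR adjusted p = 2.28e-07) and Col1a1 at 0.75 ± 0.19 (adjusted p = 0.00252). Postn, also tested, was not called (0.05 ± 0.24, adjusted p = 0.868). The fibroblast list summed to 634.5 to 670.9 against 395.2 to 468.2 normalized counts, most of it Pdgfra (560 ± 26.1 against 364 ± 25.6). Of 2 tested endothelial markers, 1 was lower. Beside these marker counts, 31.3% of all 11717 tested genes were higher and 30.2% lower. The part of the marker differences in the results on the ligands was not tested.

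In 4T1-SCA1+ cells RNA of the galectin-9 gene was higher, and RNA of the PD-L1 and PVR genes was lower. The genes for B7-H3 and CD47 were slightly higher, but the first call was lost with GC correction and the second in several other fits. At an adjusted p under 0.05 in edgeR's quasi-likelihood test, 3 of the 6 tested members were higher, beside 31.3% of all 11717 tested genes, and 2 of 6 were lower, beside 30.2%. The groups did not overlap in 4 of the 6, beside 54.7% of all tested genes. The median log2 fold change of the 6 was 0.02, and that of all tested genes was 0.01. With offsets corrected for GC content, 2 members were higher and 3 lower, beside 3000 and 4787 of all tested genes, against 3668 and 3538 in the uncorrected fit. Only Cd274 among the 6 changed by 2-fold or more. Values below are normalized counts, that is, counts divided by size factors, and log2 fold changes are given ± SE for 4T1-SCA1+ over 4T1-SCA1-. In bulk RNA, fewer cells that express a gene and less of its RNA per cell cannot be told apart.

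**Figure D1:**
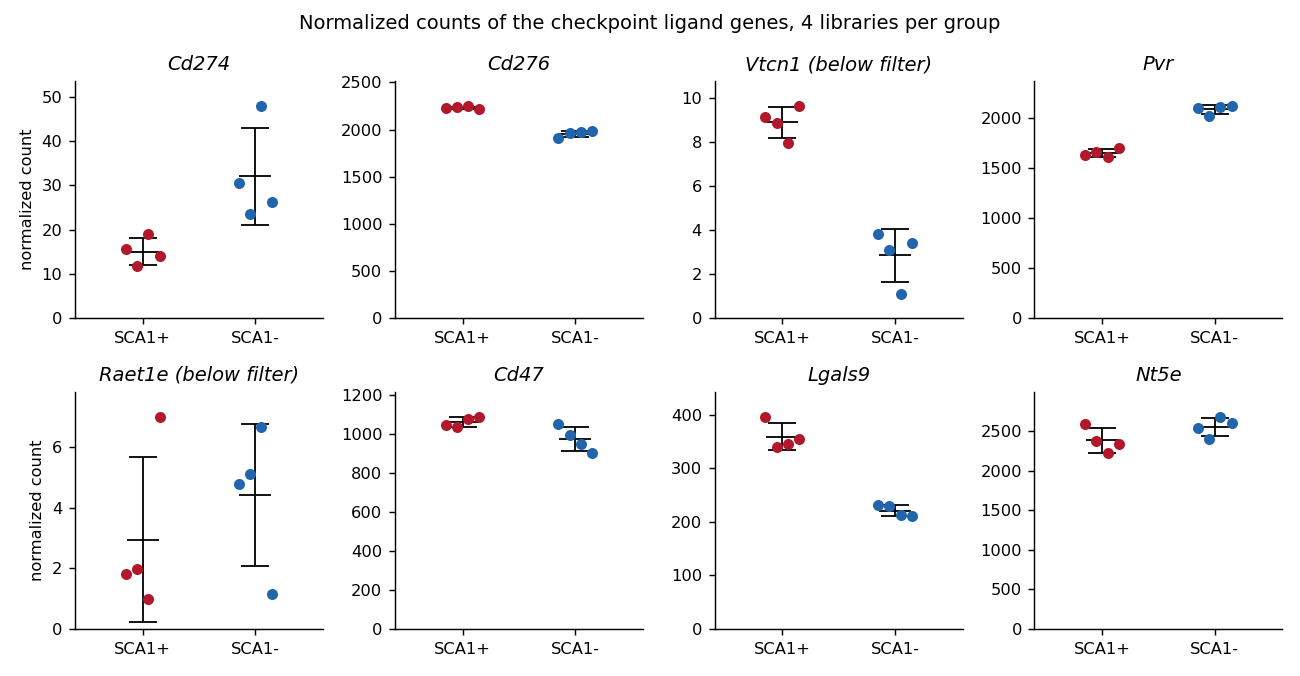
Normalized counts (vertical axes, each from 0) of the 8 counted ligand genes, 1 point per library, with 4 libraries of 4T1-SCA1+ cells (red) and 4 of 4T1-SCA1- cells (blue), and the mean ± SD in black. Cd274, Cd276, Pvr and Lgals9 do not overlap between the groups, Cd47 and Nt5e do, and Vtcn1 and Raet1e were below the filter on low counts.

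Cd274 (ENSMUSG00000016496, chr19:29367455-29388095 of GRCm38, plus strand), the PD-L1 gene, fell. The 4T1-SCA1+ libraries held 15.5, 11.8, 19.0 and 14.0 normalized counts, and the 4T1-SCA1- libraries held 30.6, 23.6, 47.9 and 26.3. Every 4T1-SCA1+ value lay under every 4T1-SCA1- value, with the third 4T1-SCA1- library well above the other three. The means were 15.1 ± 2.99 and 32.1 ± 10.9, a log2 fold change of -1.07 ± 0.26 (edgeR adjusted p = 0.00158), or 2.09 times more in 4T1-SCA1- cells. These values rest on 12 to 43 reads per library, and the 95% confidence interval of the change ran from -1.60 to -0.53. The difference was of similar size when each library was left out in turn (-1.19 to -0.82), and without the high library it was -0.82 (adjusted p = 0.00806). Counting alone would give a coefficient of variation of 18.2% at the depth of the 4T1-SCA1- libraries, and 34.0% was observed. In the 4T1-SCA1+ libraries counting would give 25.0%, and 19.9% was observed. Exons of Cd274 share 511 bases with AC119228.1 on the opposite strand, and whether reads were counted by strand is not given.

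Cd276 (ENSMUSG00000035914, chr9:58524298-58555437, minus strand) encodes B7-H3, a B7 family protein overexpressed in many carcinomas. Its normalized counts were 2224, 2239, 2245 and 2220.3 in 4T1-SCA1+ libraries, against 1911, 1960.0, 1977 and 1980.4 in 4T1-SCA1- libraries, so the groups did not overlap. 4T1-SCA1+ cells had 15.1% more on average, with a log2 fold change of 0.20 ± 0.04 (edgeR adjusted p = 0.000391). The observed coefficients of variation, 0.53% in 4T1-SCA1+ and 1.64% in 4T1-SCA1- libraries, were below the 2.05% and 2.32% that counting alone gives. The spread between these libraries was thus narrower than counting error. With offsets corrected for the GC content of the transcripts the log2 fold change was -0.03 ± 0.04 (edgeR adjusted p = 0.462), less than its SE from 0, which ended the call. The median of all tested genes was -0.07 in that fit and 0.01 in the uncorrected fit. The longest Cd276 transcript is 56.2% GC, the highest such value among the 8 counted members.

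Vtcn1 (ENSMUSG00000051076, chr3:100825459-100896922, plus strand) encodes B7-H4, an inhibitor of T cells, and was near the detection floor. The 4T1-SCA1+ libraries had 10, 9, 8 and 11 reads and the 4T1-SCA1- libraries 4, 3, 1 and 3. All 4T1-SCA1+ values were above all 4T1-SCA1- values, and the exact two-sided permutation test gave p = 0.0286, the smallest that 4 against 4 libraries allow. Vtcn1 was below the filter of the genome-wide fit. Without the filter the edgeR log2 fold change was 1.58 ± 0.50 (adjusted p = 0.00585), with a 95% confidence interval from 0.60 to 2.57.

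Of 14 further B7, butyrophilin and related ligands, 8 were counted and 2 could be tested. Icosl, the ICOS ligand, rose from 46.2 ± 6.86 to 87.6 ± 12.01 normalized counts (log2 fold change 0.94 ± 0.15, edgeR adjusted p = 2.86e-05). Btn1a1, a butyrophilin of milk fat globules, fell from 447 ± 17.1 to 80.3 ± 9.51 (-2.46 ± 0.09, adjusted p = 2.16e-13).

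Pvr (ENSMUSG00000040511, chr7:19903578-19921160, minus strand), the gene for CD155, fell. Its normalized counts were 1626, 1656, 1609 and 1701 in 4T1-SCA1+ libraries, against 2092, 2017, 2109 and 2113 in 4T1-SCA1- libraries. The groups were well separated, and the spread within each was close to counting error, with a coefficient of variation of 2.46% and 2.17% where counting alone gives 2.39% and 2.25%. The log2 fold change was -0.33 ± 0.04 (edgeR adjusted p = 5.28e-06), which is 20.2% less than in the negative fraction, and every alternative fit lay between -0.36 and -0.28. Of 7 other nectins and nectin-like molecules, the 2 tested, the adhesion molecules Cadm1 (0.28 ± 0.32) and Cadm4 (0.10 ± 0.09), were not called (edgeR adjusted p = 0.462 and 0.369).

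Raet1e (ENSMUSG00000053219, chr10:22158569-22374139, plus strand) was at the floor. It had 2, 2, 1 and 8 reads in 4T1-SCA1+ libraries and 5, 5, 6 and 1 in 4T1-SCA1- libraries. The groups overlapped, and a difference was not detectable at this depth (exact two-sided permutation p = 0.457). Its exons share 363 bases with Raet1d and 133 with H60b on the same strand, so its reads cannot be assigned with certainty. Among 10 other ligands of NKG2D and NK cell receptors, 5 were tested, of which 1 was higher and 2 lower, with a median log2 fold change of 0.03. Over all tested genes 31.3% were higher and 30.2% lower, with a median of 0.01. H2-T23, which encodes Qa-1, the ligand of the inhibitory receptor NKG2A, rose from 352 ± 13.5 to 488 ± 26.7 normalized counts (0.49 ± 0.06, edgeR adjusted p = 3.74e-06). Ulbp1, which encodes the NKG2D ligand MULT1, fell from 926 ± 37.4 to 709 ± 67.9 (-0.37 ± 0.07, adjusted p = 8.28e-05). H60b, another NKG2D ligand, was at 205 ± 26.6 and 202 ± 37.3 (0.03 ± 0.12, adjusted p = 0.844).

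Cd47 (ENSMUSG00000055447, chr16:49800533-49915010, plus strand) differed little. The 4T1-SCA1+ libraries held 1048, 1036, 1078 and 1089 normalized counts and the 4T1-SCA1- libraries 1052, 997, 953 and 904.0. The first 4T1-SCA1- library lay within the 4T1-SCA1+ range. The log2 fold change of 0.13 ± 0.05 passed the threshold in edgeR (adjusted p = 0.0364), but the call was lost with DESeq2 size factors (0.12, adjusted p = 0.0568) and in 5 of 8 fits that left out 1 library, among them the fit without the fourth 4T1-SCA1- library (0.10, adjusted p = 0.15). Of 8 other genes of the CD47 pathway, 7 were tested, 1 fell and 6 were not called, with a median of 0.00. All tested genes had a median of 0.01, with 31.3% higher and 30.2% lower. Thbs1, thrombospondin-1, a secreted CD47 ligand, fell from 20463 ± 256 to 14641 ± 624 normalized counts (-0.47 ± 0.04, edgeR adjusted p = 3.09e-08). Calr, calreticulin, a signal for phagocytosis, was at 13966 ± 536 and 14057 ± 204, and Cd24a, a ligand of inhibitory Siglecs, at 4984 ± 389 and 4999 ± 218, and neither was called. Qpctl, the glutaminyl cyclase that modifies the SIRPα-binding end of CD47, had a log2 fold change of -0.06 ± 0.08 (adjusted p = 0.52).

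Lgals9 (ENSMUSG00000001123, chr11:78962974-78984946, minus strand), the galectin-9 gene whose promoter is printed above, rose. The 4T1-SCA1+ libraries held 396, 340.2, 346 and 354 normalized counts and the 4T1-SCA1- libraries 231, 229, 213 and 211. The lowest 4T1-SCA1+ library stood far above the highest 4T1-SCA1- library. Its mean was 1.64 times that of the negative fraction (log2 fold change 0.71 ± 0.07, edgeR adjusted p = 2.92e-07), with a 95% confidence interval from 0.55 to 0.87. Alternative fits gave 0.60 to 0.76, the lowest with GC correction. Of 9 genes for other galectins and the galectin-3 binding protein, 5 were tested, 2 higher and 3 lower, with a median of -0.14. The shares over all tested genes were 31.3% higher and 30.2% lower, with a median of 0.01. Lgals3bp rose from 516 ± 25.5 to 1130 ± 30.6 (1.14 ± 0.05, adjusted p = 8.53e-12). Lgals3 fell from 5567 ± 272 to 4656 ± 388 (-0.25 ± 0.06, adjusted p = 0.000939), and Lgals8 from 627 ± 26.6 to 554 ± 18.3 (-0.17 ± 0.06, adjusted p = 0.0179). Lgals1, a secreted galectin that acts on T cells, had the most reads of the list, 99805 ± 2225 against 110819 ± 4318 (-0.14 ± 0.04, adjusted p = 0.00598). The call on Lgals8 was lost with library totals (adjusted p = 0.0778) and that on Lgals1 with limma (adjusted p = 0.0627).

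Nt5e (ENSMUSG00000032420, chr9:88327197-88372092, plus strand) was not called. Its normalized counts were 2595, 2377, 2223 and 2339 in 4T1-SCA1+ libraries, against 2538, 2405, 2678 and 2600.2 in 4T1-SCA1- libraries. The groups overlapped, with the first 4T1-SCA1+ library above 2 of the 4T1-SCA1- libraries. The log2 fold change was -0.09 ± 0.05 (edgeR adjusted p = 0.165), and its 95% confidence interval, -0.20 to 0.03, leaves room for up to 12.9% less. Without the first 4T1-SCA1+ library the value was -0.13 (adjusted p = 0.0344), and with GC correction -0.12 (adjusted p = 0.0168). The GC-corrected fit had a median of -0.07 over all tested genes, against 0.01 in the uncorrected fit. Counting error was not the limit, since the observed coefficients of variation, 6.52% and 4.53%, were above the 1.99% and 2.03% that counting gives.

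Of 17 other genes that make, clear or sense adenosine, 10 were tested, of which 4 were higher and 3 lower, with a median of 0.30. Among all tested genes 31.3% were higher and 30.2% lower, with a median of 0.01. Alpl, alkaline phosphatase, which removes phosphate from extracellular nucleotides, rose from 18.3 ± 1.40 to 108 ± 12.99 normalized counts (2.58 ± 0.16, edgeR adjusted p = 3.04e-10). Cd38, which opens the route from NAD+ to AMP, rose from 71.7 ± 9.18 to 178 ± 8.98 (1.33 ± 0.11, adjusted p = 1.02e-08), and Enpp1, the next enzyme of that route, from 147 ± 3.18 to 214 ± 14.7 (0.55 ± 0.08, adjusted p = 2.28e-05). Entpd3, an ecto-nucleotidase that breaks down ATP, fell from 849 ± 48.4 to 582 ± 27.5 (-0.53 ± 0.06, adjusted p = 4.91e-07), and Adk, adenosine kinase, from 865 ± 41.8 to 669 ± 65.6 (-0.36 ± 0.07, adjusted p = 0.00019). Among the receptors, Adora1 rose from 31.4 ± 8.61 to 68.7 ± 11.1 (1.15 ± 0.19, adjusted p = 3.95e-05).

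**Figure D2:**
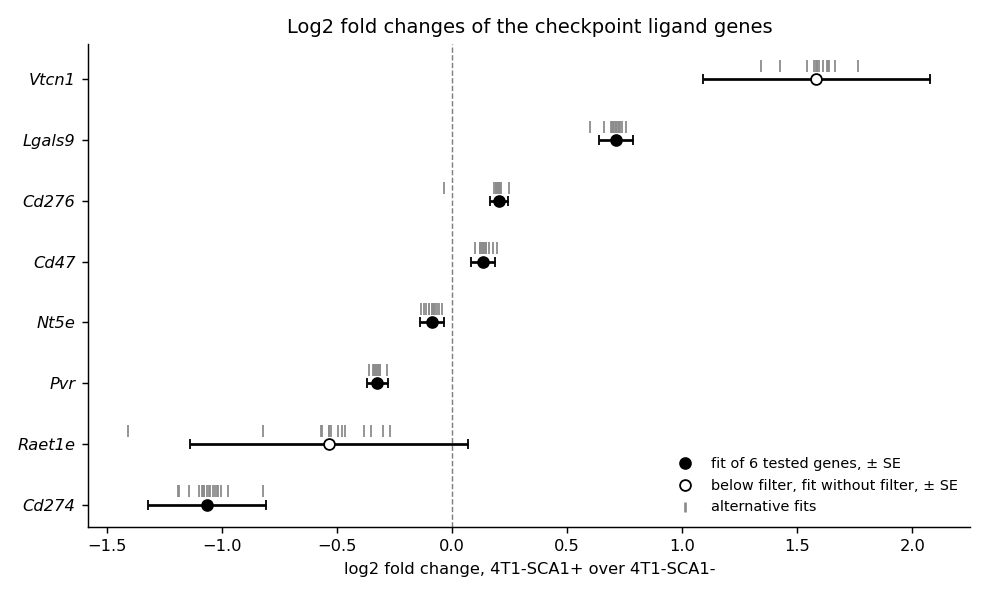
Log2 fold changes of 4T1-SCA1+ over 4T1-SCA1- cells (horizontal axis) for the 8 counted ligand genes, with SE bars. Filled circles are the 6 tested genes, open circles the 2 genes below the filter, fitted without it, and grey ticks the alternative fits. The ticks of Lgals9, Pvr and Cd274 stay on their side of 0, and a tick of Cd276, at -0.03 with GC correction, crosses it.

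Levels were compared between the genes as RPKM, that is, reads scaled by exon length and by library depth. In 4T1-SCA1+ cells Cd276 was highest at 40.3 ± 0.14, followed by Nt5e at 18.3 ± 1.24 and Pvr at 17.8 ± 0.46, whose libraries overlapped. Cd47 (11.2 ± 0.25) and Lgals9 (11.1 ± 0.80) came next and overlapped with each other. Cd274 (0.28 ± 0.05), Vtcn1 (0.22 ± 0.02) and Raet1e (0.09 ± 0.08) closed the order, and the libraries of Vtcn1 overlapped those of both Cd274 and Raet1e. In 4T1-SCA1- cells the order was Cd276 (35.1 ± 0.59), Pvr (22.3 ± 0.53), Nt5e (19.5 ± 0.92), Cd47 (10.2 ± 0.65), Lgals9 (6.78 ± 0.31), Cd274 (0.58 ± 0.20), Raet1e (0.13 ± 0.07) and Vtcn1 (0.07 ± 0.03), and only Raet1e and Vtcn1 overlapped as neighbours. Pvr and Nt5e exchanged places between the groups. By RPKM, Cd276 stood at percentile 88.3 and 85.5 of the tested genes and Cd274 at 2.8 and 9.2, so PD-L1 RNA was scarce in both fractions. Without division by length Nt5e ranked first in both groups, but in 4T1-SCA1+ cells its libraries overlapped those of Cd276.

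**Figure D3:**
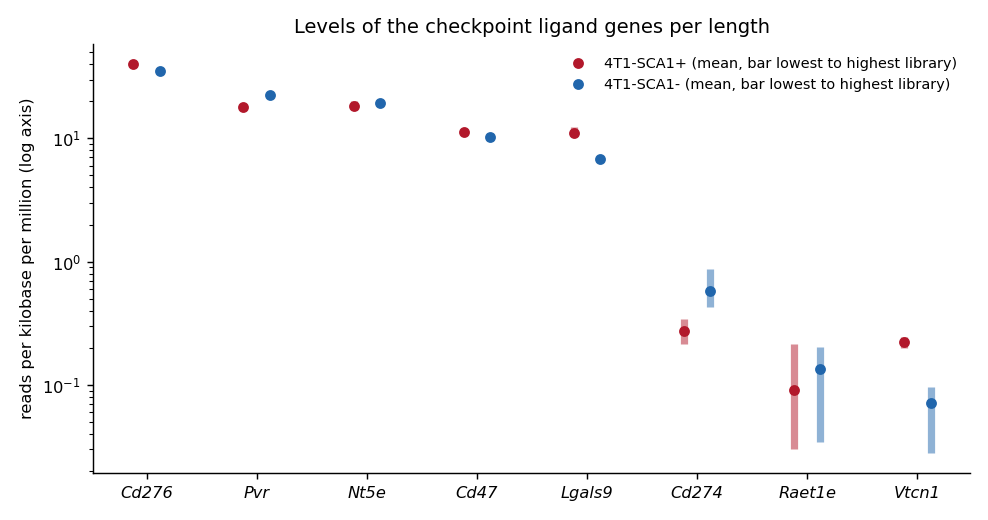
RPKM (vertical log axis) of the 8 counted ligand genes in 4T1-SCA1+ cells (red) and 4T1-SCA1- cells (blue), with points for the mean and bars from the lowest to the highest of 4 libraries. Cd276 leads in both groups at 40.3 and 35.1, and Cd274, Raet1e and Vtcn1 lie under 1 in both.

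All 20 regulators of PD-L1 were tested, of which 5 were higher, 6 lower and 9 not called, with a median of -0.04. These shares are close to or below the 31.3% higher and 30.2% lower among all tested genes. In the interferon-γ pathway, which induces Cd274, the receptor chain Ifngr1 fell from 783 ± 27.3 to 589 ± 13.2 normalized counts (-0.40 ± 0.05, edgeR adjusted p = 4.85e-06). The transcription factor Irf1 fell from 1323 ± 29.9 to 998 ± 41.4 (-0.39 ± 0.05, adjusted p = 1.81e-06). Not called were the other receptor chain Ifngr2 (-0.102 ± 0.055, edgeR adjusted p = 0.12) and the kinase Jak1 (-0.041 ± 0.047, adjusted p = 0.459). Nor were the transcription factors Irf2 (adjusted p = 0.627) and Irf9 (adjusted p = 0.892). The kinase Jak2 rose from 1475 ± 62.5 to 2663 ± 115 (0.86 ± 0.05, adjusted p = 9.59e-11), and Socs1, a feedback inhibitor of JAK kinases, from 71.3 ± 15.3 to 128 ± 27.0 (0.85 ± 0.16, adjusted p = 0.000186). Stt3a, a subunit of the oligosaccharyltransferase that glycosylates PD-L1, fell from 9566 ± 257 to 6411 ± 616 (-0.56 ± 0.06, adjusted p = 2.13e-07). Cmtm6, which protects PD-L1 protein from lysosomal decay, was at 1232 ± 23.8 and 1188 ± 38.9 (0.07 ± 0.05, adjusted p = 0.235).

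Transcripts of 3 receptors of these ligands were also read. Tigit, the inhibitory receptor of PVR on lymphocytes, was at 866 ± 58.9 normalized counts in the positive fraction and 852 ± 54.1 in the negative fraction (log2 fold change 0.04 ± 0.06, edgeR adjusted p = 0.616). Havcr2, the TIM-3 gene, was at 257 ± 29.8 and 226 ± 22.9 (0.20 ± 0.10, adjusted p = 0.0767), and Sirpa, the CD47 receptor, at 586 ± 33.0 and 576 ± 18.9 (0.03 ± 0.06, adjusted p = 0.621). With GC correction Havcr2 was past the threshold (0.22, adjusted p = 0.0212), as it was without the third 4T1-SCA1+ library (0.27, adjusted p = 0.0106), and Sirpa turned to -0.15 (adjusted p = 0.016). Of 15 receptors, 4 were tested, and 1, Lag3, an inhibitory receptor of T cells, was higher, at 24.6 ± 4.31 against 9.45 ± 0.72. Its log2 fold change was 1.37 ± 0.25 (edgeR adjusted p = 0.000123), from 8 to 29 reads per library. Over the 8 pathway lists, 99 genes were named, 73 counted and 54 tested, of which 14 were higher, 16 lower and 24 not called, with a median of 0.01, beside 31.3% higher and 30.2% lower among all tested genes. With GC correction 13 were higher and 26 lower, beside 3000 and 4787 of all tested genes.

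**Figure D4:**
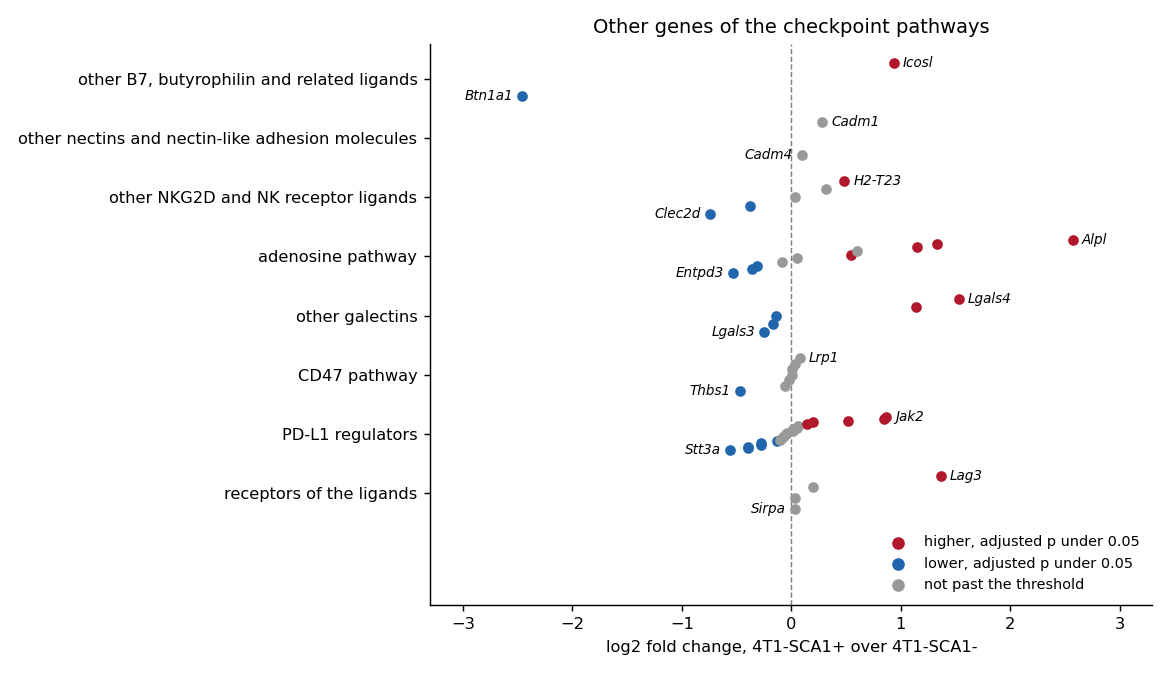
Log2 fold changes of 4T1-SCA1+ over 4T1-SCA1- cells (horizontal axis) for the tested genes of the 8 pathway lists. Each list has 1 point per gene, and Sirpa is in both the CD47 pathway and the receptor list. Points are red where higher, blue where lower and grey where not past the adjusted p threshold of 0.05. Btn1a1, at -2.46, and Alpl, at 2.58, lie at the ends, and the CD47 pathway lies near 0 apart from Thbs1.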

How the data were processed

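RNA was sequenced from 8 libraries, 4 of each sorted fraction. The authors deposited a matrix of raw read counts per Ensembl gene and a normalized table, in unit a signal, which the deposited counts divided by DESeq2 size factors gave to within a relative difference of 5e-15. The normalized table leaves out 969 genes with at most 1 read in total. The submitters' processing notes name cutadapt 1.16, STAR 2.5.3a and GRCm38. The counting tool, gene annotation and strand setting are not given in the sources used here. Total counts were 13561804 to 16968215 per library.

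Counts were tested with the edgeR 4.0.16 quasi-likelihood test in R 4.3.3, after filterByExpr and TMM scaling, on 11717 of 16341 genes, with Benjamini-Hochberg adjustment over all tested genes and calls at an adjusted p under 0.05. Genes below the filter were given an exact two-sided permutation test. The fit was checked on simulated counts. RPKM used exon lengths of GENCODE M21, where 16202 identifiers were found. Alternatives were DESeq2 1.42.0, its size factors, library totals, limma 3.58.1 on log2 of the normalized table with a pseudocount of 1, other filters and thresholds, GC-corrected offsets, a replicate block, and leaving out each library.

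The members and the lists of related genes were chosen with earlier results of these data known. From each list, the 2 called genes with the largest change in each direction and a mean normalized count of at least 50 were named. Tigit, Havcr2, Sirpa, Lag3, Csf1r, S100a8, Cmtm6, Irf1, Enpp1, Adora1, Lgals1, H60b, Raet1d, Ada, Calr, Cd24a, Qpctl, Cadm1 and Cadm4 were named after their values were seen. Col1a1, Krt5, Postn, Itgam, Itgax, S100a9, Ifngr2, Jak1, Irf2 and Irf9 were added in the same way. A regulator on the PD-L1 list is counted there but not reported by name here. The labels do not say that the numbers pair the libraries, so they were not taken to pair them. Deviations of same-numbered libraries had correlations of 0.14, -0.23, -0.07 and 0.00. Differently numbered libraries were not compared in this way, so these values cannot show that pairing is absent.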

Additional observations from a re-analysis of the deposited data

Results flagged for a closer look

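In groups of 4 libraries, a library was singled out where its gap to the nearest of the others was large against the range of the group. Of 86 groups examined, 9 were singled out, where chance gives about 4.3. Among the ligands this was the fourth 4T1-SCA1+ library for Raet1e, at 7.00 normalized counts against 1.00 to 1.97 in the other three, from 8 reads. Among related genes, Icosl was low in the second 4T1-SCA1- library (35.9 against 49.0 to 50.2) and Lgals3bp in the first (479 against 525 to 533). Lgals8 was low in the third 4T1-SCA1+ library (527 against 560.3 to 565). Thbs1 was high in the first 4T1-SCA1+ library (15568 against 14262 to 14459) and in the second 4T1-SCA1- library (20845 against 20318 to 20368), and Jak2 was high in the first 4T1-SCA1- library (1568 against 1433 to 1454). Of the markers, Cd68 was low in the third 4T1-SCA1+ library (209 against 243 to 249) and Krt8 high in the second 4T1-SCA1- library (11677 against 10841 to 10951).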

How the results depend on the processing

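Of 136 alternative values for the ligands, 122 kept direction and side of the threshold, among them all those of Cd274, Pvr and Lgals9. Cd276 lost its call at -0.034 ± 0.039 with GC-corrected offsets. That fit also gave Nt5e -0.12, past the threshold, and 26 related genes lower in place of 16, beside 4787 of all tested genes in place of 3538. Cd47 lost its call at 0.12 with DESeq2 size factors, without the low-count filter and in DESeq2, at 0.12 with limma on the normalized table, at 0.13 under the adjusted p threshold of 0.01, and at 0.14 with the replicate block. The replicate block changed no other call on a ligand or named gene. With each library left out in turn, Cd47 ran from 0.10 to 0.16, losing its call without 4T1-SCA1+ library 1 or 4 or 4T1-SCA1- library 2, 3 or 4, and Nt5e ran from -0.134 to -0.057. Requiring an absolute log2 fold change of 1 left 0 ligands higher and 1 lower, 6 related genes higher and 1 lower, and 612 of all genes higher and 103 lower in place of 3668 and 3538. With GC correction Tigit (-0.089) and Sirpa (-0.15, adjusted p = 0.016 in edgeR) changed sign. With libraries left out Tigit ran from -0.009 to 0.072 and Raet1d, without the filter, from -0.088 to 0.765. Havcr2 also passed the threshold with library totals (0.25, adjusted p = 0.0389), and Ada, which encodes adenosine deaminase, with GC correction (-0.25, adjusted p = 0.011). Why GC correction moved these values was not tested. The median of all genes was 0.01, and -0.07 with GC correction, 0.05 with library totals and 0.00 with DESeq2 size factors. Depth limits Cd274, at 12 to 43 reads, Vtcn1 and Raet1e.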

Other observations

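Tigit and Havcr2 are known as lymphocyte and myeloid receptors, and their RNA was read in cells sorted as CD45-. Per length, Tigit stood at 62.3 ± 4.23 RPKM in the positive fraction and 60.7 ± 3.91 in the negative fraction (SD, n = 4), over 919 exonic bases on chr16:43648867-43664146 of GRCm38. Havcr2 was at 6.25 ± 0.74 and 5.44 ± 0.56, and Sirpa at 7.89 ± 0.43 and 7.69 ± 0.25. In the same libraries Ptprc had at most 4 counts and Cd3e at most 2. Of the myeloid markers, Itgam and Itgax had at most 4 counts in any library, S100a9 at most 2 and Lyz2 at most 1. Cd68 (236 ± 18.4 against 153 ± 9.67 normalized counts) and Cd74 (125 ± 6.42 against 65.5 ± 15.1), also on the leukocyte list, were detected and were higher in 4T1-SCA1+ cells. The less abundant Csf1r and S100a8 were also higher. The source of the Tigit, Havcr2 and Sirpa reads was not tested.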
